A study of Rattus norvegicus with 320 samples.

Results

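The miR-34 and miR-449 family was followed across the organs and ages of the rat. Its members were taken by name from a table of mature miRNAs, as every row called rno-miR-34a, rno-miR-34b, rno-miR-34c, rno-miR-449a or rno-miR-449c with any arm suffix, and 8 of the 616 rows were found. They were rno-miR-34a-5p, rno-miR-34a-3p, rno-miR-34b-5p, rno-miR-34b-3p, rno-miR-34c-5p, rno-miR-34c-3p, rno-miR-449a-5p and rno-miR-449c-5p, and the prefix for rat (rno) is left out from here on. No filter on low counts was used, and all 8 entered every test. The 320 small RNA libraries came from untreated, pair-housed Fischer 344 rats, an inbred strain whose name is spelled Fisher 344 in the labels. Rats of both sexes were killed at 2, 6, 21 or 104 weeks of age (juvenile, adolescent, adult and aged), with 4 rats for each sex and age. The organs were adrenal gland, brain, heart, kidney, liver, lung, skeletal muscle, spleen and thymus from both sexes, with testis from males and uterus from females. Total RNA came from a powder of the whole organ, so each value is an average over all of its cell types. A fall in a miRNA can thus mean fewer cells that hold it or less of it per cell, and these cannot be told apart here.

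A miRNA pairs with messenger RNAs mainly through its seed, the bases that follow the first base of its 5′ end, and lowers their translation and stability. miRNAs with one seed are expected to share targets and form a family. The gene of miR-34a is a direct target of p53, the transcription factor of the DNA damage response, and miR-34a acts on messages of the cell cycle and of cell survival. miR-34b and miR-34c are cut from one shared transcript and, with miR-449, are known from male germ cells in meiosis and from cells that carry many motile cilia, such as those lining the airways, the oviduct and the ventricles of the brain.

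The 5 sequences of the 5p arms, which define the family, are shown 5′ to 3′ with the seed (bases 2 to 8) in capitals, as RefSeq gives them with the rat assembly GRCr8.
miR-34a-5p: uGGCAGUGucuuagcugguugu
miR-34b-5p: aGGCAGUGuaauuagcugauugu
miR-34c-5p: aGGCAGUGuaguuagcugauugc
miR-449a-5p: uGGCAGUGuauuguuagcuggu
miR-449c-5p: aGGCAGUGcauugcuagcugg
The seed GGCAGUG was the same in all 5, and no other row of the table with a sequence in RefSeq held it. Counted from the 5′ end, miR-34b-5p and miR-34c-5p differed by 2 substitutions (A11G and U23C, with the base of miR-34b-5p first). miR-449a-5p and miR-449c-5p differed by 3 over 21 bases (U1A, U9C and U14C, with the base of miR-449a-5p first). Other pairs stood further apart, all outside the seed. miR-34a-5p had 7 substitutions against miR-449a-5p and 11 against miR-34c-5p, and miR-34c-5p had 12 against miR-449a-5p. Bases were compared position by position without gaps, so an inserted base can count as several substitutions. The rows of miR-34b-5p and miR-34c-5p are thus near-identical, and a short or imperfect read can fit both.

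The opposite arms carry other seeds, which are shown because the arms were measured separately.
miR-34a-3p: aAUCAGCAaguauacugcccua
miR-34b-3p: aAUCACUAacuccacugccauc
miR-34c-3p: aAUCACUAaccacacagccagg
miR-34b-3p and miR-34c-3p shared the seed AUCACUA and differed by 5 substitutions in all, while the seed of miR-34a-3p, AUCAGCA, was its own.

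The family lay at 3 places in GRCr8. The hairpin of Mir34a was at chr5:165815952-165816053 on the plus strand, within the long non-coding gene LOC103692514. The hairpins of Mir34b (chr8:60306609-60306692) and Mir34c (chr8:60306091-60306167) were on the minus strand, 441 bases apart, and overlapped the protein-coding gene Hoatz, with Btg4 as the next coding gene on one side. Mir449c (chr2:46402375-46402473) and Mir449a (chr2:46403910-46404000) were on the plus strand, 1436 bases apart, within the long non-coding gene LOC134485839. Mcidas, which codes for a factor that turns on the multiciliated cell programme, was the nearest coding gene on one side of that pair, 24627 bases from Mir449c. On the other side Gpx8 lay nearer, 5645 bases from Mir449a. The counts themselves were made on another assembly (rn7), so these positions place the genes and were not used in the counting.

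The table gave raw counts per library, from 315550 to 10571766 counts (median 2848155), and levels are given as CPM, the count scaled by the library's own total of miRNA counts. Liver libraries were the shallowest, with a median of 1040989 counts. Brain of a male at week 6 (replicate 3) and spleen of a female at week 104 (replicate 4) were left out throughout, which left 318 libraries. No pair of the 474 replicate pairs was alike within counting noise (chi-square per degree of freedom at least 12.7), so every library counted as a sample. The labels of brain, liver and testis held against markers, and no such check is given here for the other organs. miR-124 and miR-9a summed to 44088 to 99646 CPM in brain and at most 817 elsewhere. miR-122 was 20497 to 45294 CPM in liver and at most 2959 elsewhere. A list of testis miRNAs (miR-202, miR-741, miR-743b, miR-871, miR-881 and miR-883) was 2732 to 91503 CPM in testis and at most 777 elsewhere. Still, 19 libraries of other organs held more than 50 CPM of the X-linked miRNAs of the testis list, up to 291 CPM. For many but not all of the called age and sex results in groups with such a library, values without them are also given, at the result or further on.

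Which organs held the family was asked first, by comparing all organs in pairs within each age. miR-34c-5p was the most abundant member in lung, brain and the testis of weeks 6 and 21, and at week 21 its mean was above that of the other members in every organ but heart and adrenal gland, where miR-34a-5p was higher. At week 21 its mean was 131752 ± 9678 CPM in testis (SD, n = 4), 4182 ± 742 in lung (n = 8) and 1137 ± 154 in brain (n = 8), and these 3 ranges did not overlap. Below them followed spleen (273), thymus (231), uterus (211), heart (141), adrenal gland (122), liver (72.6), kidney (62.6) and skeletal muscle (39.8), and from spleen downward each organ's range overlapped the next. At week 2 the order began with lung (2550.2 ± 369) and brain (1090.2 ± 123), and testis, at 468 ± 34.7, overlapped with uterus. At week 104 lung (4909 ± 1293) again stood first by its mean, and its range overlapped that of spleen because of 1 spleen library described further on.

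Calls between organs needed an adjusted p under 0.05 in edgeR's quasi-likelihood test and a difference of at least 4-fold. The 8 members gave 764 calls in 1760 comparisons of organ pairs, 187 of 440 at week 2, 181 at week 6, 207 at week 21 and 189 at week 104. Over all 616 rows, 33.6%, 34.4%, 34.5% and 30.8% of the comparisons were called at these ages. Testis was called above each of the 10 other organs for 5 members at week 6 (miR-34b-5p, miR-34b-3p, miR-34c-5p, miR-34c-3p and miR-449a-5p), where 7.14% of all rows were. At week 21 it was so for 5 members again, with miR-449c-5p in place of miR-34c-3p, against 6.82% of all rows. miR-34a-5p passed over 6 organs at week 6 and 7 at week 21.

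**Figure D1:**
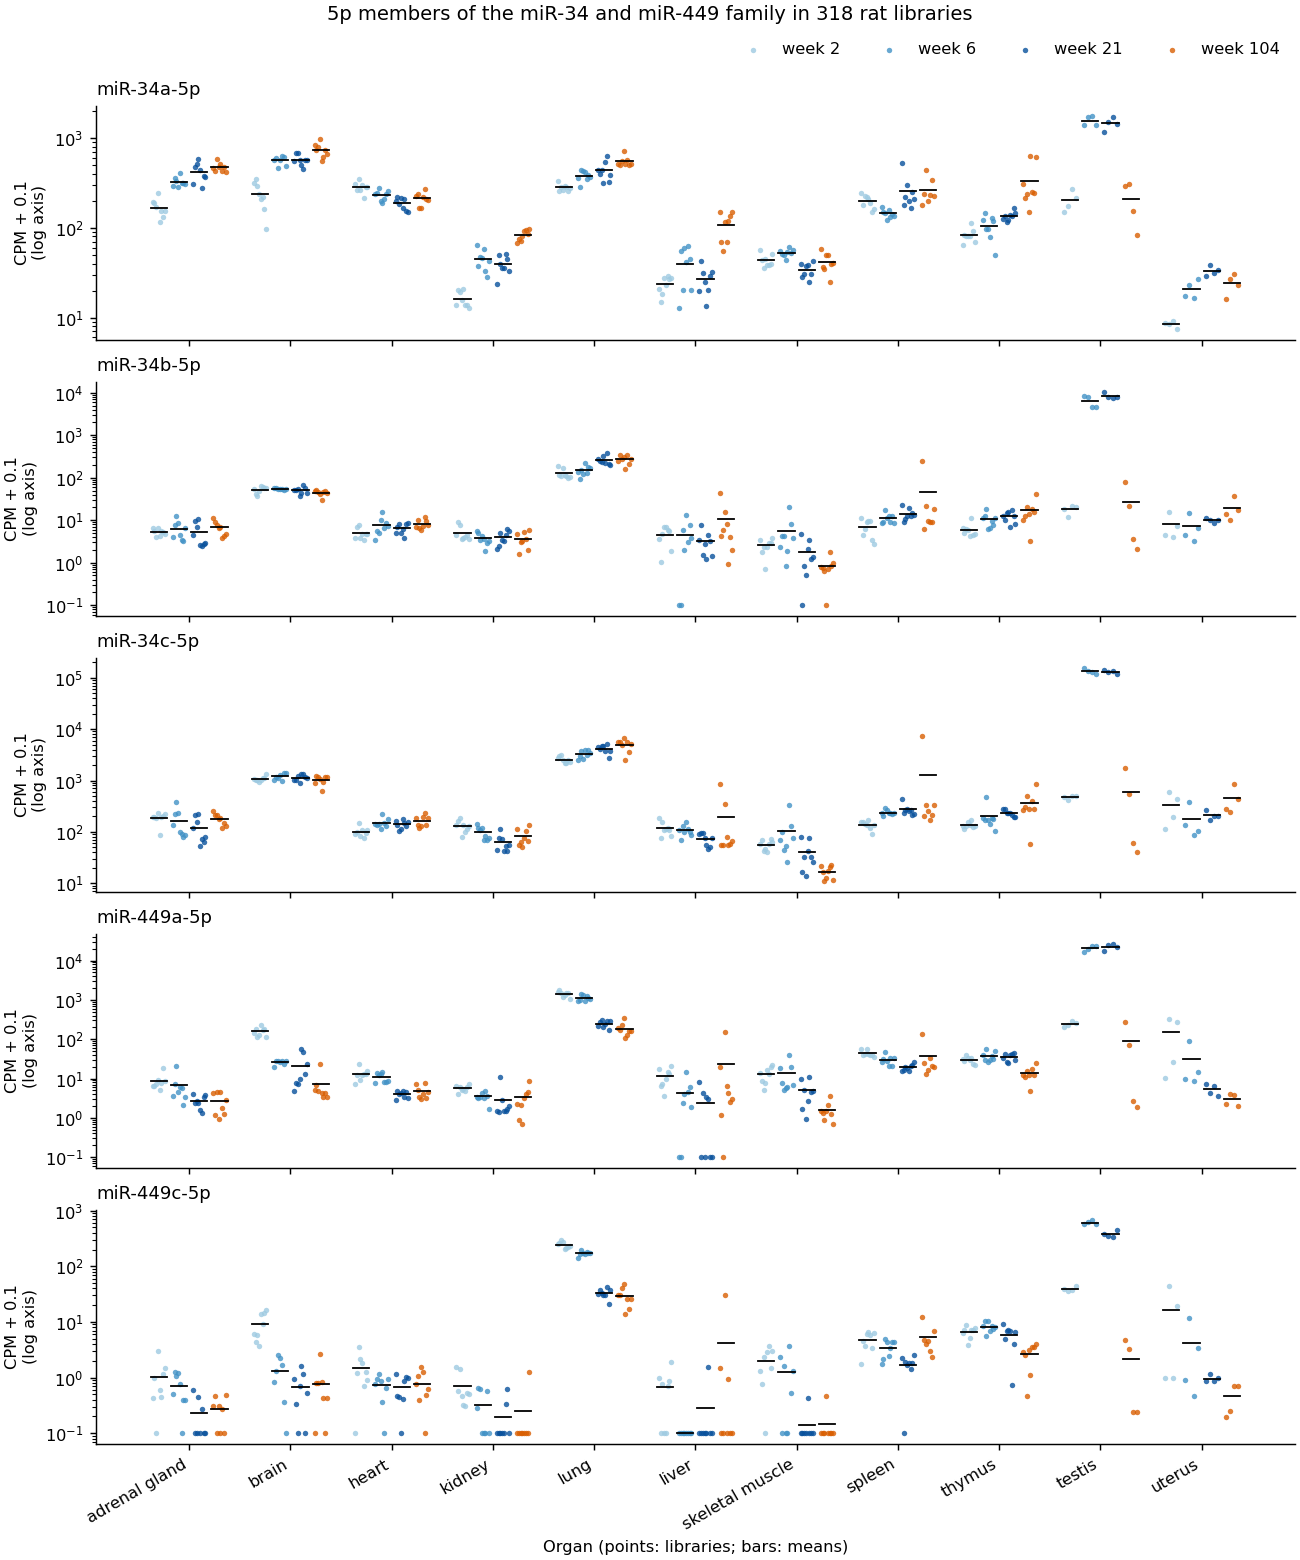
Level of the 5 members of the 5p arm (CPM + 0.1, log axis) in each organ at 2, 6, 21 and 104 weeks, with 1 point for each library and a bar at each mean. Testis stood apart at weeks 6 and 21 and lung was high at all ages for the miR-34b, miR-34c and miR-449 rows, while miR-34a-5p was lowest in uterus and kidney at week 2.

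Lung was the other organ rich in the family. At week 2 lung stood above all 10 other organs for miR-449a-5p (1438 ± 226 CPM, n = 8) and miR-449c-5p (246 ± 31.9 CPM, n = 8), and testis came next with 244 ± 30.7 and 39.3 ± 3.18 CPM (n = 4). At week 6 the order had turned, and testis exceeded lung 25.5-fold for miR-34c-5p, 26.6-fold for miR-34b-5p and 11.7-fold for miR-449a-5p. For miR-449c-5p the excess was 2.26-fold, which passed on p (adjusted p = 4.0e-04) and missed the 4-fold limit. At week 104 lung exceeded testis 4.95-fold for miR-34c-5p (adjusted p = 0.0069), while miR-449a-5p gave 1.33-fold and an adjusted p of 0.62 with wide spread between the aged testes. Brain was below lung for miR-34c-5p at each age, by 3.69-fold at week 2 and 7.13-fold at week 21.

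miR-34a-5p followed another order. At week 2 heart (284 ± 39.4 CPM), lung (281 ± 24.8), brain (236 ± 83.0), testis (203), spleen (197 ± 32.3) and adrenal gland (115 to 241 CPM) formed a group in which each range overlapped the next. Uterus was last at 8.33 ± 0.735 (n = 4). At week 21 testis led with 1462 ± 218 CPM, followed by brain (569.9 ± 80.8), lung (435 ± 107) and adrenal gland (418 ± 105), whose ranges overlapped in turn. At week 104 brain was first by its mean (735 ± 131), lung (550.3 ± 75.5) overlapped with it, and testis had fallen to 209.8 ± 109.9. Its 3p arm was rare, with 1085 counts in 318 libraries together, and is described only where it passed a test.

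The testis was compared between successive ages to see when the family was present. Its 4 libraries at week 2 held 471, 418, 491 and 492 CPM of miR-34c-5p. At week 6 they held 151844, 136646, 126916 and 118131 CPM, and at week 21 141837, 131849, 134642 and 118679 CPM. At week 104 the values were 1784, 553, 60.9 and 40.6 CPM. All adolescent and adult testes thus lay far above all juvenile and aged ones, and the aged testes spread widely, with replicates 1 and 2 above replicates 3 and 4. By the study's quality notes piRNA, another class of small RNA, dominated the adolescent and adult testis libraries, while miRNA dominated most others. CPM is a share of miRNA counts only. Relative to all reads the rises to these ages would be smaller, and that of miR-34a-5p need not hold. Changes per read or per cell were not tested.

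The change from week 2 to week 6 was 8.18 ± 0.87 (SE, adjusted p = 1.5e-06) on the log2 scale for miR-34c-5p. miR-34b-5p, from the same transcript, went from between 11.7 and 21.8 to between 4555 and 8631 CPM, a log2 change of 8.49 ± 0.84 (SE, adjusted p = 7.0e-07). miR-449a-5p went from between 211 and 283 to between 16573 and 23961 CPM, a log2 change of 6.47 ± 1.04 (SE, adjusted p = 9.1e-05). miR-34a-5p rose less, from between 150.1 and 272 to between 1389 and 1739 CPM, a log2 change of 2.98 ± 0.31 (SE, adjusted p = 1.5e-06). An age call needed an adjusted p under 0.05 and at least a 2-fold change, and all 8 members were called higher at week 6, where 14.9% of all rows were called higher. With the sequencing lane as a covariate 6 of 8 were called, without miR-449a-5p (adjusted p = 0.21) and miR-34a-3p (0.71), and miR-34a-3p was also lost when any 1 replicate number was left out. Further log2 changes were 7.08 ± 0.65 for miR-34b-3p, 6.49 ± 0.55 for miR-34c-3p and 3.99 ± 0.49 for miR-449c-5p, and miR-34a-3p went from between 1.66 and 2.38 to between 1.91 and 7.47 CPM.

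Between weeks 6 and 21, 0 of the 8 members were called in testis by edgeR, where 0.974% of all rows were called higher and 1.62% lower. Few rows of any kind were thus called between these ages. Of the 8 members 0 had an unadjusted p under 0.05, and DESeq2 called 0 of the 7 to which it gave an adjusted p. miR-34c-5p changed by 0.25 ± 0.64 (SE, adjusted p = 0.92) and miR-449a-5p by 0.38 ± 0.82 (SE, adjusted p = 0.90). From week 21 to week 104 all 8 members fell, where 22.7% of all rows were called lower. The log2 change was -6.71 ± 0.82 (SE, adjusted p = 1.7e-06) for miR-34c-5p, -7.23 ± 0.79 (SE, adjusted p = 5.2e-07) for miR-34b-5p and -6.99 ± 1.06 (SE, adjusted p = 2.0e-05) for miR-449a-5p. For miR-34a-5p it was -1.56 ± 0.30 (SE, adjusted p = 2.2e-04), from 1178, 1519, 1704 and 1446 CPM at week 21 to 292, 310.3, 154 and 82.5 CPM, with no overlap between the ages. The family as a whole took 0.0998% ± 0.0111 of the testis miRNA counts at week 2 (SD, n = 4), 16.6% ± 1.38 at week 6, 16.8% ± 0.939 at week 21 and 0.0955% ± 0.109 at week 104. By its mean in testis miR-34c-5p alone ranked 1 of the 616 rows at week 6 and 2 at week 21, against 103 at week 2 and 56 at week 104.

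**Figure D2:**
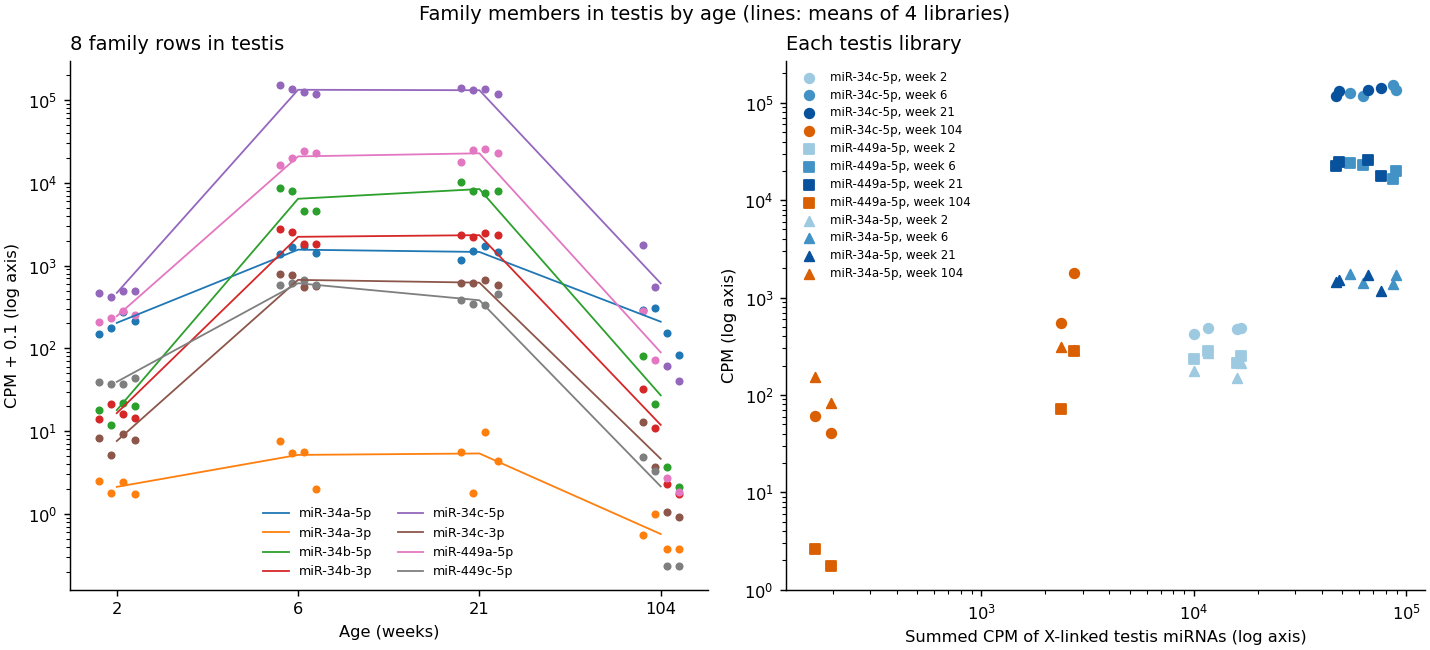
Left, levels of the 8 members in testis (CPM + 0.1, log axis) against age in weeks, with 1 point for each of the 4 libraries at each age and lines through the means, and right, the level of 3 members in each testis library against the summed level of the X-linked testis miRNAs (both in CPM, log axes). The miR-34b, miR-34c and miR-449 rows were high at weeks 6 and 21, miR-34a-5p moved over a narrower range, and in the right panel 2 of the 4 aged libraries had the lowest sums of X-linked miRNAs and the lowest miR-34c-5p.

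Whether the aged testis returned to the juvenile level depended on the scaling. With edgeR's TMM factors the log2 difference between week 104 and week 2 was 1.72 ± 0.66 (SE, adjusted p = 0.034) for miR-34c-5p and 1.59 ± 0.30 (SE, adjusted p = 2.1e-04) for miR-34a-5p. Scaled to library size alone the same differences were 0.38 and 0.05, while the median over all rows was -0.55 with TMM and -2.06 by library size. With the sequencing lane as a covariate miR-34c-5p gave -0.10. In CPM 2 aged testes thus lay above the juvenile range of miR-34c-5p and 2 below it, and relative to the other rows the level was higher with TMM. miR-449c-5p was lower at week 104 than at week 2 in both, with a log2 change of -2.93 ± 0.52 (SE, adjusted p = 1.2e-04) with TMM and -4.35 by library size, from 39.6, 36.5, 37.4 and 43.6 CPM to 4.70, 3.20, 0.137 and 0.135 CPM.

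Other testis miRNAs moved with the family in the same libraries. The list of X-linked testis miRNAs, a cluster expressed in the testis of rodents, summed to 10053 to 16613 CPM at week 2, 54512 to 88998 at week 6, 46903 to 76041 at week 21 and 2723, 2359.9, 166 and 197 CPM in the 4 aged libraries. The aged replicates 1 and 2, which held more miR-34c-5p, also held more of this cluster. With miR-202, a gonad miRNA, the list had 23 rows, of which 20 rose and 1 fell from week 2 to week 6, with a median log2 change of 2.15 against -0.25 over all rows. Of all rows, 14.9% rose and 21.6% fell between these ages. miR-871-3p changed by 3.30 ± 0.90, miR-741-3p by 2.78 ± 0.56 and miR-202-5p by -1.20 ± 0.19. From week 21 to week 104, 21 of the 23 fell, where 22.7% of all rows did, with a median of -4.09 against 0 over all rows. miR-202 itself remained at 3971, 4515, 2594 and 4410.1 CPM in the aged testes, against 9301, 7055, 8279.9 and 7489 CPM at week 21. Markers of epithelium (the miR-200 family, miR-141, miR-429 and miR-375) fell as well, from between 3232 and 3961 to between 69.8 and 175 CPM. So did other markers from week 21 to week 104. Those of red cells (miR-451, miR-144 and miR-486) went from between 10991 and 22841 to between 900 and 1826 CPM. Those of striated muscle went from between 398 and 606 to between 43.4 and 109 CPM. By library size the median over all rows changed by -1.13 on the log2 scale between these ages. The part of any cell type in the change of the family was not tested.

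The change of testis with age was set against that of the other organs in one fit. From week 2 to week 21 miR-34c-5p rose in testis by 8.18 ± 0.66 (SE, adjusted p = 4.0e-26) on the log2 scale more than in the mean of the 10 other organs, miR-449a-5p by 8.50 ± 0.77 (SE, adjusted p = 4.4e-22) and miR-34a-5p by 2.17 ± 0.27 (SE, adjusted p = 3.2e-13). From week 21 to week 104 the differences were -7.24 ± 0.64, -6.84 ± 0.72 and -2.10 ± 0.27. Over 22 such contrasts, 2 for each organ, 66 of the 176 values for members passed, and 21.3% did over all rows. The testis entered the mean that every other organ was compared with, so a value for another organ holds its change too.

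In lung the cluster of miR-34b and miR-34c went up with age while miR-449 went down. The lowest, median and highest level of miR-34c-5p was 2146, 2489.9 and 3164 CPM at week 2, 2559, 3340.1 and 3957 at week 6, 2748, 4363 and 5036 at week 21 and 2496, 5296 and 6644 at week 104 (n = 8 each). For miR-449a-5p it was 1071, 1502 and 1744 CPM at week 2, 921, 1096 and 1439 at week 6, 168, 263 and 307 at week 21 and 106, 166 and 342 at week 104. All lungs of weeks 2 and 6 lay above all lungs of weeks 21 and 104 for miR-449a-5p, and the ranges of miR-34c-5p overlapped between the ages.

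From week 2 to week 104 the log2 change in lung was 1.14 ± 0.13 (SE, adjusted p = 9.8e-09) for miR-34c-5p and -2.76 ± 0.18 (SE, adjusted p = 4.2e-14) for miR-449a-5p. Higher as well were miR-34b-5p (1.32 ± 0.15), miR-34b-3p (1.56 ± 0.14), miR-34c-3p (1.86 ± 0.11) and miR-34a-5p (1.20 ± 0.13), which made 5 of 8 called higher against 11.4% of all rows. By library size miR-34c-5p (0.94) and miR-34a-5p (0.97) fell short of 2-fold, which left 3 of 8. miR-449c-5p fell by 2.92 ± 0.16 on the log2 scale from 246 ± 31.9 to 28.9 ± 11.3 CPM, and 2 of 8 members were called lower against 20.0% of all rows. Most of the fall came between weeks 6 and 21, where the log2 change was -2.01 ± 0.18 (SE, adjusted p = 1.9e-10) for miR-449a-5p and -2.22 ± 0.15 (SE, adjusted p = 2.9e-12) for miR-449c-5p. The ratio of miR-34c-5p to miR-449a-5p went from 1.78 at week 2 to 2.89, 16.7 and 26.9 at the later ages (geometric means, n = 8). The epithelial list went from between 7591 and 12968 CPM at week 2 to between 14102 and 22196 CPM at week 104 in the same libraries, and its part in these changes was not tested.

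The brain also showed a fall of miR-449 beside a change of miR-34c under 2-fold. miR-34c-5p had a lowest, median and highest level of 941, 1059 and 1355 CPM at week 2 (n = 8) and 633, 1112 and 1211 CPM at week 104 (n = 8), and its log2 change of 0.35 ± 0.12 (SE, adjusted p = 0.018) stayed under 2-fold and was -0.08 by library size. miR-449a-5p had 113, 155 and 227 CPM at week 2, 19.5, 27.4 and 28.4 at week 6 (n = 7), 4.82, 11.4 and 55.9 at week 21 and 3.24, 4.47 and 24.0 at week 104. The juvenile brains lay above all later ones. The log2 change was -2.31 ± 0.26 (SE, adjusted p = 3.8e-08) from week 2 to week 6 and -4.34 ± 0.29 (SE, adjusted p = 4.7e-13) from week 2 to week 104. miR-449c-5p, at 9.15 ± 5.06 CPM at week 2, changed by -3.37 ± 0.46 (SE, adjusted p = 4.2e-07) by week 104.

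miR-34a-5p went the other way in brain, with a lowest, median and highest level of 97.1, 229 and 349 CPM at week 2 and 551, 735 and 966 CPM at week 104, which did not overlap. Its log2 change was 2.10 ± 0.12 (SE, adjusted p = 9.3e-15), and 1.59 ± 0.12 (SE, adjusted p = 1.3e-11) of it had come by week 6. miR-34a-3p, its opposite arm, changed by 1.50 ± 0.32 (SE, adjusted p = 2.2e-04) between the same ages at a few CPM. Of the 8 members, 2 were called higher and 2 lower in brain between weeks 2 and 104, against 10.7% and 14.0% of all rows. The epithelial list varied from 169 to 27316 CPM among the brain libraries, within ages as well as between them, and its part was not tested.

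**Figure D3:**
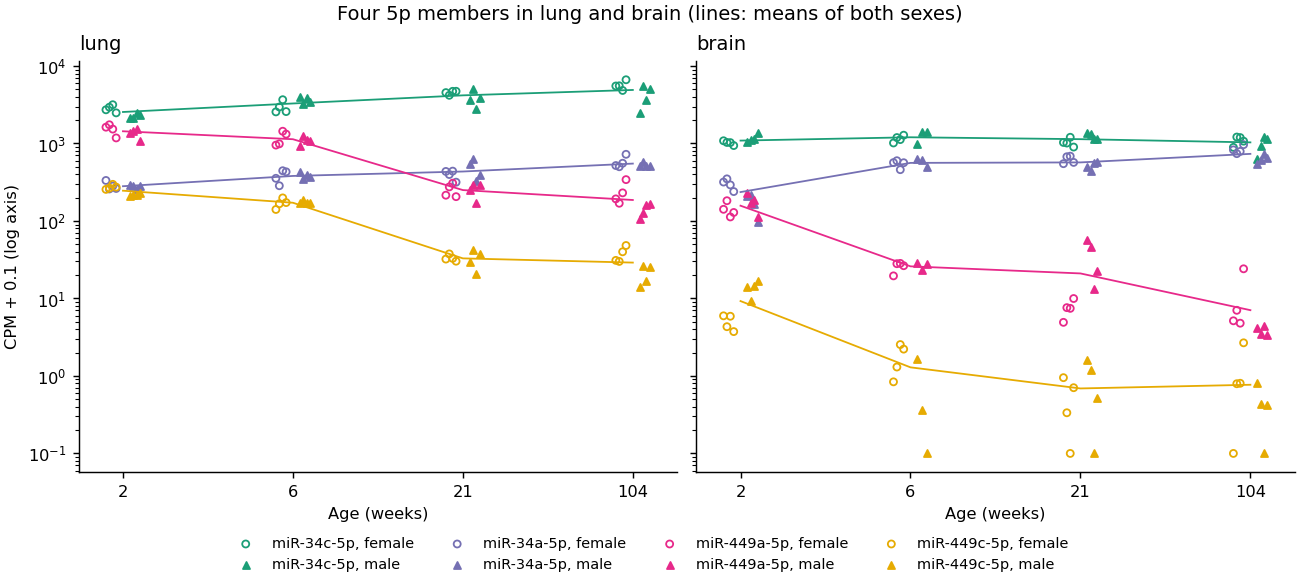
Levels of 4 members in lung and brain (CPM + 0.1, log axis) against age in weeks, with 1 point for each library, open circles for females, triangles for males, and lines through the means of both sexes. miR-449a-5p and miR-449c-5p fell with age in both organs while miR-34c-5p did not, and miR-34a-5p was higher at week 104 than at week 2.

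Across organs, the members split by direction between week 2 and week 104. miR-34a-5p had a positive log2 change in 11 of 11 organs with TMM scaling, and miR-449a-5p and miR-449c-5p a negative one in 9 of 11 each. By library size alone the change of miR-34a-5p turned to -0.42 in heart and -0.07 in skeletal muscle, and it was 0.05 in testis. By library size the median over all rows moved against TMM by between -1.50 (testis) and 0.19 (thymus). With the 2-fold limit, miR-34a-5p was called higher in 8 organs and lower in 0 with TMM, and higher in 6 by library size, where over the 11 organs 12.6% of all tests were called higher and 21.7% lower. Over the 4 age contrasts of the 11 organs, 101 of 352 tests of members were called, 66 higher and 35 lower, against 18.1% of tests over all rows.

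In kidney miR-34a-5p went from between 12.7 and 21.0 CPM at week 2 to between 68.0 and 95.7 CPM at week 104 (n = 8 each), with no overlap and a log2 change of 2.58 ± 0.14 (SE, adjusted p = 1.3e-17). In liver it went from between 14.9 and 29.0 to between 54.6 and 151 CPM, a log2 change of 2.47 ± 0.26 (SE, adjusted p = 4.6e-10), of which 1.81 ± 0.26 came after week 21. The rise after week 21 in liver was larger than in the mean of the other organs, by 1.74 ± 0.21 (SE, adjusted p = 4.1e-13), a value that held the fall in testis and was between 1.55 and 1.95 under the alternatives. In uterus the 4 libraries at week 2 held 8.53, 8.36, 9.09 and 7.33 CPM and those at week 104 16.1, 26.5, 30.9 and 22.7 CPM, a log2 change of 2.43 ± 0.23 (SE, adjusted p = 1.7e-08) without overlap. Here most of the change came early, with 1.82 ± 0.23 (SE, adjusted p = 5.2e-06) from week 2 to week 6. In the adrenal gland the level went from between 115 and 241 to between 418 and 586 CPM and the log2 change was 1.93 ± 0.16 (SE, adjusted p = 4.1e-12). In thymus it went from between 63.8 and 113 to between 151 and 636 CPM, a log2 change of 1.65 ± 0.21 (SE, adjusted p = 1.5e-08). All of these organs kept the groups of weeks 2 and 104 apart.

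Heart, skeletal muscle and spleen stood aside. In heart miR-34a-5p was 215 to 350.4 CPM at week 2 and 164 to 269.8 CPM at week 104, and the log2 change was 0.14 ± 0.11 (SE, adjusted p = 0.33). In skeletal muscle it was 0.86 ± 0.17 (SE, adjusted p = 2.9e-05) and in spleen 0.68 ± 0.15 (SE, adjusted p = 7.7e-04), both under 2-fold. The RNA of the youngest spleens was of lower integrity than that of other samples by the study's quality notes, and its part in the spleen values was not tested. From week 2 to week 21 heart changed by -1.62 ± 0.19 (SE, adjusted p = 2.2e-13) relative to the mean of the other organs. The heart did change in the other cluster, where miR-34b-3p (1.87 ± 0.20), miR-34c-3p (1.87 ± 0.29), miR-34b-5p (1.29 ± 0.24) and miR-34c-5p (1.26 ± 0.15) rose between weeks 2 and 104, from between 76.7 and 148 to between 119 and 235 CPM for the last. By library size miR-34b-5p (0.72) and miR-34c-5p (0.69) fell short of 2-fold and both 3p arms did not. Over the 11 organs miR-34c-5p was called higher in 6 and lower in 0 with TMM, where 12.6% of tests over all rows were called higher and 21.7% lower. By library size it was called higher in 2 and lower in 1. Without the fold limit it passed with TMM as higher in 7 organs and lower in 2. In skeletal muscle it went from between 41.4 and 73.0 CPM at week 2 to between 10.9 and 22.7 CPM at week 104, without overlap.

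miR-449a-5p was called lower at week 104 than at week 2 in 6 organs. Besides brain and lung these were uterus (-4.76 ± 0.92), skeletal muscle (-2.20 ± 0.46), thymus (-1.42 ± 0.21) and adrenal gland (-1.35 ± 0.37). The uterus value rested on uneven juvenile libraries, which held 10.3, 322, 26.8 and 269.8 CPM, against 2.18, 4.03, 3.77 and 1.96 CPM at week 104. Juvenile replicates 2 and 4 were the high ones, and they also held the most miR-34c-5p among 115, 602, 190.5 and 434 CPM. Of the 23 testis miRNAs, 8 also fell in uterus between these ages, where 24.5% of all rows did. Juvenile replicate 4 was one of the libraries with testis miRNAs (227 CPM of the X-linked list), and without such libraries the change was -4.44 (adjusted p = 3.8e-04).

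**Figure D4:**
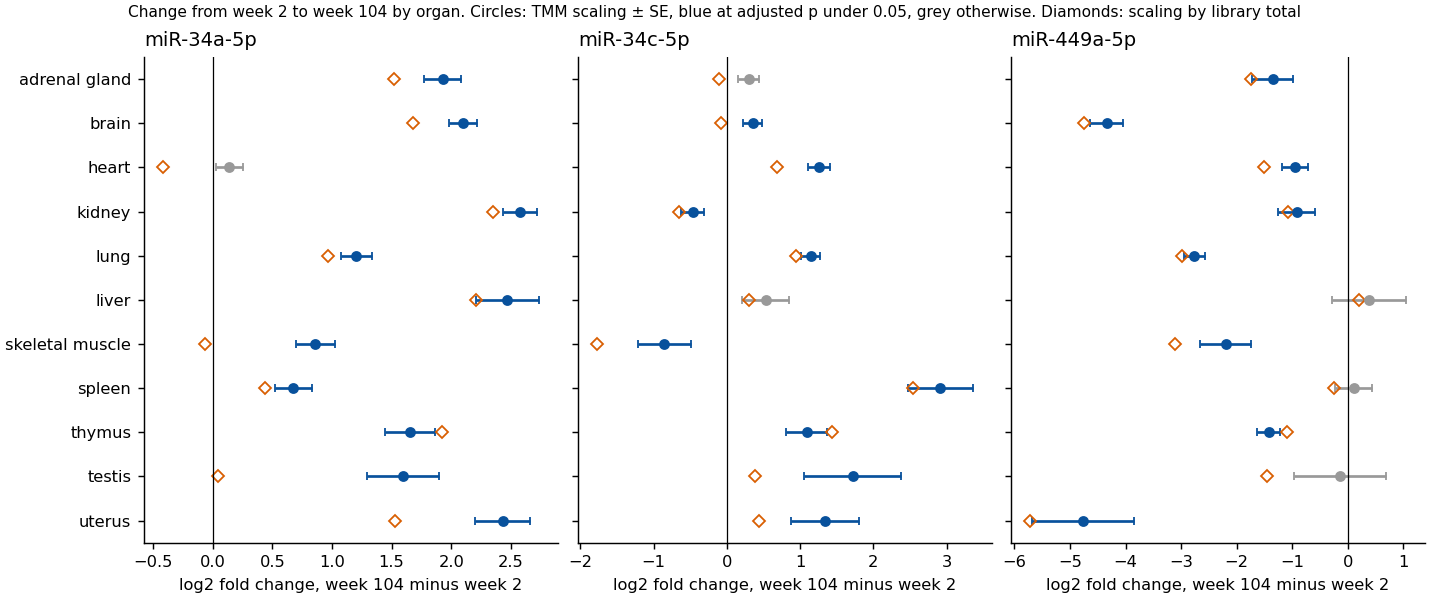
Log2 change from week 2 to week 104 of 3 members in each of the 11 organs (circles, edgeR with TMM scaling, with bars of 1 standard error, blue where the adjusted p was under 0.05 and grey otherwise), beside the change by library size alone (diamonds). With TMM miR-34a-5p lay above 0 in all organs, with heart nearest to 0, and miR-449a-5p lay below 0 in all but liver and spleen.

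The sexes were compared in the 9 organs that both have, averaged over the ages. Of 72 tests of members 3 passed at an adjusted p under 0.05, all in the adrenal gland and all higher in females, where 1.39% of the tests over all rows passed and 2.27% of all rows were called higher in female adrenal glands. They were miR-34c-5p (0.72 ± 0.10 (SE, adjusted p = 1.7e-05)), miR-34b-5p (0.69 ± 0.13 (SE, adjusted p = 7.9e-04)) and miR-34b-3p (1.07 ± 0.19 (SE, adjusted p = 4.4e-04)), 3 products of 1 cluster. At week 21 miR-34c-5p was 119, 209.8, 155 and 220.2 CPM in females and 52.6, 72.8, 63.1 and 80.3 CPM in males. At week 6 it was 134, 224, 381 and 233 CPM in females and 98.5, 91.4, 80.4 and 86.0 CPM in males. The sexes did not overlap at these ages, and the log2 difference was 0.98 ± 0.21 (SE, adjusted p = 0.0036) at week 21 and 1.31 ± 0.21 (SE, adjusted p = 9.1e-05) at week 6. At week 2 the ranges overlapped, with 189.7 to 236 CPM in females and 86.3 to 221 in males. With the sequencing lane as a covariate miR-34b-5p (adjusted p = 0.070) and miR-34b-3p (0.055) no longer passed in that fit.

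**Figure D5:**
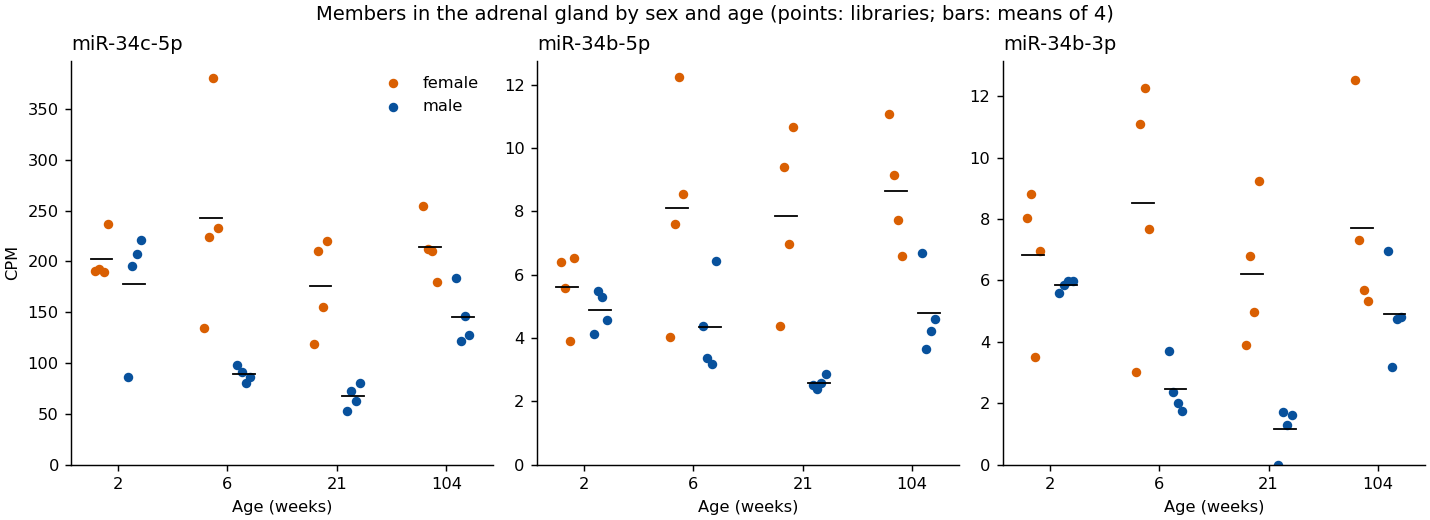
Level of miR-34c-5p, miR-34b-5p and miR-34b-3p in the adrenal gland (CPM) by sex and age, with 1 point for each of the 4 libraries in a group and bars at the means. For miR-34c-5p females lay above males at weeks 6 and 21, and the sexes overlapped at weeks 2 and 104.

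Whether the change from week 2 to week 104 differed between the sexes was tested for the same 9 organs, and 0 of 72 tests of members passed in edgeR, with 1.24% of tests over all rows passing. At an unadjusted p under 0.05 there were 16 of 72, and DESeq2 also gave 0 adjusted calls. No share over all rows is given at the unadjusted limit, so the 16 cannot be read as an excess. The sexes were also compared at each single age in these organs. The single-age differences named here and in other paragraphs were picked from those tests, and no count of calls or share over all rows is given for them. miR-34a-5p was higher in female brains at week 2, with 318, 349, 292 and 239.5 CPM against 209, 219, 164 and 97.1 CPM in males and a log2 difference of 0.93 ± 0.16 (SE, adjusted p = 4.6e-04). In the thymus of week 104 it was lower in females, with 308, 216, 238 and 151 CPM against 636, 249, 242 and 611 CPM, a difference of -1.15 ± 0.29 (SE, adjusted p = 0.027) in which the ranges overlapped. It did not pass by library size (adjusted p = 0.080) or with the lane as a covariate (0.37). In the brain at week 21 miR-449a-5p was 4.82, 7.51, 7.35 and 9.88 CPM in females and 55.9, 46.2, 13.0 and 22.8 CPM in males, a log2 difference of -2.27 ± 0.38 (SE, adjusted p = 3.1e-04). Here the male libraries held 122, 226, 43.7 and 57.1 CPM of the X-linked testis list and the female ones 8.79, 3.29, 7.74 and 18.8 CPM. Without libraries above 50 CPM of that list the difference was -0.74 (adjusted p = 0.99), a value with only male replicate 3 left at that age, whose spread had to be taken from the other groups. In the same fit the change of miR-449a-5p in brain from week 21 to week 104 went from -1.52 ± 0.30 (SE, adjusted p = 0.0041) to -1.06 (adjusted p = 0.070). It was also lost without replicate 1 or 2.

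Some calls rested on 1 or a few libraries. In spleen at week 104 the kept female libraries held 7453, 202 and 327 CPM of miR-34c-5p and the males 252, 169, 210.1 and 337 CPM, so that female replicate 1 stood far above all others. It held 4.41 CPM of the X-linked testis list, near the level of most spleens, and 317 CPM of the epithelial list, the lowest of the kept females of that age. Without this library the difference between the sexes at week 104 went from 3.56 ± 0.65 to -0.10, and the change from week 21 to week 104 from 1.64 ± 0.42 to -0.19. The change from week 2 to week 104 went from 2.92 ± 0.44 to 1.09 and still passed (adjusted p = 7.8e-07).

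Liver at week 104 was uneven in the same way. Its female libraries held 863, 54.5, 54.6 and 352 CPM of miR-34c-5p and 19.3, 1.05, 0 and 149 CPM of miR-449a-5p, and the males 78.9, 55.2, 57.9 and 65.9 CPM of miR-34c-5p. The difference between the sexes in miR-34c-5p at that age was 2.31 ± 0.48 (SE, adjusted p = 0.0044), and without replicate 1 it was 1.28 (adjusted p = 0.21). In skeletal muscle the male libraries of week 6 held 26.3, 333, 128 and 75.1 CPM of miR-34c-5p, and the highest, replicate 2, held 239 CPM of the X-linked testis list. Without libraries above 50 CPM of that list the change of miR-34c-5p in muscle from week 2 to week 6 went from 1.10 ± 0.35 to -0.12.

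The following calls, in groups with libraries above 50 CPM of the X-linked list, were kept without them. In brain the change from week 2 to week 104 was then -4.76 for miR-449a-5p, -3.74 for miR-449c-5p and 1.97 for miR-34a-5p. For miR-34a-5p it was 1.87 in thymus, 2.52 in liver and 2.34 in uterus, and for miR-449a-5p -1.36 in thymus and -2.20 in skeletal muscle. The rise of miR-34a-5p in liver after week 21 was 1.79, and that in uterus from week 2 to week 6 was 1.74. The differences between the sexes were 1.10 for miR-34c-5p in the adrenal gland at week 6, where female replicate 3, the highest, held 72.6 CPM of the list, 2.65 for miR-34c-5p in liver and -1.37 for miR-34a-5p in thymus at week 104. Relative to the mean of the other organs miR-34a-5p then changed by -1.49 in heart from week 2 to week 21 and by 1.63 in liver after week 21. Averaged over the ages the adrenal differences between the sexes were 0.67 for miR-34c-5p, 0.64 for miR-34b-5p and 1.02 for miR-34b-3p.

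The products of each locus were compared within libraries, where depth cancels. The ratio of miR-34c-5p to miR-34c-3p was 206 in testis and 40.9 in lung over weeks 6 and 21 (8 and 16 libraries), a log2 difference of 2.33 (two-sided exact permutation test, p = 2.72e-06, adjusted over 3 ratios 8.16e-06). miR-34b-5p came to 0.0543 of miR-34c-5p in testis and 0.0530 in lung, and no difference was shown (exact permutation test, p = 0.83). The ratio of miR-34c-5p to miR-449a-5p was 6.12 in testis and 6.96 in lung over both ages (exact permutation test, p = 0.71), with a log2 SD of 1.34 in lung. All lung ratios lay below all testis ratios at week 6 and above them at week 21. The pooled test thus cannot show a likeness of the organs at either age. As a description, miR-449a-5p was 33.8 times miR-449c-5p in testis at week 6 and 59.6 times at week 21, against 6.20 in testis at week 2 and between 5.83 and 7.63 in lung over the ages. How reads that fit both miR-34b-5p and miR-34c-5p were shared out is not given in the sources used here, so the small ratio of these near-identical rows is uncertain.

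Over the 44 means of organ and age, on the scale log2(CPM + 1), the members' levels were set side by side as a description, since the means of an organ share tissue and the testis carries much of the spread. Pearson's r was 0.99 for miR-34b-5p with miR-34c-5p, 0.97 for miR-449a-5p with miR-449c-5p and 0.88 for miR-34c-5p with miR-449a-5p. miR-34a-5p was less like the others, with 0.67 against miR-34c-5p and 0.53 against miR-449a-5p. Over the 40 means without testis, r was 0.77 for miR-34c-5p with miR-449a-5p and 0.58 for miR-34a-5p with miR-34c-5p. Outside the family, the rows whose means correlated best with those of miR-34c-5p were miR-465-3p (r = 0.69), miR-3065-5p (0.68) and miR-742-3p (0.68). For miR-449a-5p they were miR-465-3p (0.71), miR-509-5p (0.71) and miR-742-3p (0.71). For miR-34a-5p they were miR-221-3p (0.68), miR-7a-5p (0.68) and miR-652-3p (0.67). These ranks depended on the pseudocount: miR-465-3p came first for miR-34c-5p and miR-449a-5p with 0.5, 1 and 5, while with 0.5 miR-3084a-3p came first for miR-34a-5p and miR-760-3p came next after miR-465-3p for miR-34c-5p, and with 5 miR-224-3p did. miR-465-3p, from the X-linked region that holds other testis miRNAs, had means of 15.5, 67.9, 79.7 and 1.69 CPM in testis at weeks 2, 6, 21 and 104, and under 1 CPM in lung.

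Other miRNAs linked to p53 in the literature (miR-192, miR-194, miR-215, miR-143, miR-145, miR-107, miR-15a, miR-15b, miR-16 and miR-200c, 19 rows) were set beside miR-34a. From week 2 to week 104, 4 of the 19 rose and 2 fell in brain, where 10.7% of all rows rose and 14.0% fell, with a median log2 change of 0.57 against 0.07 over all rows. In lung, where 11.4% and 20.0% of all rows rose and fell, 4 rose and 0 fell (miR-192-3p by 3.45 ± 0.76 and miR-192-5p by 2.22 ± 0.42), with a median of 0.34. In kidney 0 rose and 4 fell (8.12% and 17.4% of all rows), and in thymus 1 rose and 8 fell (19.0% and 25.2%), with medians of -0.13 and -0.92. In liver, with 8.12% and 24.2% of all rows, 1 rose (miR-107-3p, 1.51 ± 0.14) and 1 fell (miR-15b-3p, -1.33 ± 0.32). miR-34a-5p was called higher in all of these 5 organs. In the other organs between 0 and 4 of the 19 rose and between 0 and 4 fell from week 2 to week 104, with medians from -0.15 (testis) to 0.58 (skeletal muscle), where between 7.95% and 19.6% of all rows rose and between 16.2% and 33.0% fell. In testis from week 2 to week 6, where 14.9% of all rows rose and 21.6% fell, 1 rose (miR-15b-3p, 1.03 ± 0.21) and 1 fell (miR-200c-3p, -1.26 ± 0.43). Several of these rows mark muscle or epithelium as well, so the list does not stand for p53 alone.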

How the data were processed

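Small RNA libraries were sequenced from total RNA of 11 organs of rats of 4 ages and both sexes, 320 libraries in all. The authors deposited a table of raw counts per mature miRNA and library (616 rows), and the submitters' processing notes name fastp 0.23.2, Bowtie 1.3.1 and the genome build rn7. How reads that fit several miRNAs were assigned is not given in the sources used here. All 320 count columns matched a label, and groups came from the labels. A male brain of week 6 (replicate 3) and a female spleen of week 104 (replicate 4) were left out. Library totals ran from 315550 to 10571766 counts, which sets the counting error of rare members. A member with 3 counts or fewer in a library is at the floor, and this covers counting error only.

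Counts were fitted with edgeR 4.0.16 (quasi-likelihood test, TMM factors) in R 4.3.3 over all 616 rows with no filter on low counts: 1 fit per age for the pairs of organs, 1 fit per organ for ages and sexes, and 1 fit of all organs for differences between organs in the age change. P-values were adjusted (Benjamini-Hochberg) over all rows within each contrast. The standard error was the log2 change divided by the root of the F statistic. Ratios of members were compared by an exact two-sided permutation test over libraries with at least 10 counts of both (SciPy 1.17.1). Both were tested on simulated data, and no outcome is given here. For the edgeR fits these data had a pooled mean profile and the same spread for all rows, so uneven groups were not covered. Each rat gave several organs, but the sources do not say that a replicate number marks 1 rat across organs. Within a group the p-values measure only the spread between these samples.

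The alternatives were library size in place of TMM, DESeq2 1.42.0, a mean count of at least 10, all 320 libraries, the sequencing lane (8 lanes) or sex as a covariate, the replicate number as a block, other fold limits, other count minimums and pseudocounts, and leaving out each replicate number. Leaving out libraries with over 50 CPM of X-linked testis miRNAs, or 1 spleen library, was chosen after seeing the data. Every member was named. For each, the 3 other rows with the highest correlation of mean log2(CPM + 1) were sought, and of the lists (testis miRNAs, p53-linked miRNAs, epithelial markers) those called with the largest changes were named. The members and lists were chosen with earlier results of these data known.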

Additional observations from a re-analysis of the deposited data

Results flagged for a closer look

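Within groups of 4 libraries, the gap between the most extreme library and its nearest neighbour was set against the range of the group. Of 454 such groups of a member, 30 (6.61%) passed Dixon's limit, where chance alone gives about 1 in 20. Each of the 30 is given here as the extreme library and its nearest neighbour in CPM.

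For miR-34a-5p these were replicate 1 of the male adrenal glands of week 6 (406, nearest 313), replicate 1 of the male kidneys of week 2 (21.0, nearest 13.6), replicate 2 of the male lungs of week 104 (576, nearest 511), replicate 4 of the male muscles of week 2 (51.5, nearest 39.4) and, as the lowest, replicate 1 of the female thymus of week 2 (63.8, nearest 80.6). For miR-34b-5p they were male libraries, replicate 2 of heart at week 2 as the lowest (3.40, nearest 4.61), replicate 2 of lung at week 21 (387, nearest 219), replicate 4 of spleen at week 104 (18.1, nearest 9.56), replicate 2 of thymus at week 2 (11.4, nearest 4.56) and replicate 1 of testis at week 21 (10216, nearest 7937). Those of miR-34b-3p were male as well, with the lowest in replicate 3 of kidney (2.87, nearest 3.40) and of lung (35.6, nearest 66.1) at week 2, and the highest in replicate 2 of skeletal muscle at week 6 (10.5, nearest 2.44) and week 21 (7.11, nearest 2.19). miR-34c-5p stood high in female libraries, replicate 4 of adrenal gland at week 2 (236, nearest 192), replicate 3 of thymus at week 6 (476, nearest 186), which also held X-linked testis miRNAs, and replicate 2 of uterus at week 6 (388, nearest 137). That uterus library was also the highest for miR-34c-3p (9.96, nearest 2.23) and miR-449a-5p (90.9, nearest 14.2). Other high values of miR-34c-3p were in female adrenal gland at week 104 (replicate 1, 5.75, nearest 3.66) and male heart at week 21 (replicate 3, 5.78, nearest 3.01), and low ones in female lung at week 6 (replicate 2, 54.5, nearest 73.9) and male thymus at week 21 (replicate 2, 3.84, nearest 4.77). Replicate 4 of the female brains of week 104, with a low share of miRNA reads by the study's quality notes, was the highest for miR-34c-3p (24.9, nearest 12.8) and miR-449a-5p (24.0, nearest 6.93). Replicate 4 of the female livers of week 104 was the highest for miR-449a-5p (149, nearest 19.3) and miR-449c-5p (30.4, nearest 1.38). The rest were miR-449a-5p in male heart at week 6 (replicate 1, 14.6, nearest 8.51) and female kidney at week 21 (replicate 3, 10.6, nearest 2.79), and miR-449c-5p in male lung at week 6 (replicate 2, 184, nearest 172).

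The change of the testis with age differed from the mean change of the 10 other organs by the test of that difference in edgeR. From week 2 to week 21 the log2 difference was 8.18 for miR-34c-5p, 8.50 for miR-449a-5p and 2.17 for miR-34a-5p. From week 21 to week 104 it was -7.24, -6.84 and -2.10 for the same members. Without libraries above 50 CPM of the X-linked testis list these were 8.45, 8.92 and 2.40 from week 2 to week 21 and -7.41, -7.13 and -2.18 from week 21 to week 104.

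The 2 libraries left out also held the family. The male brain of week 6 (replicate 3) had 166 CPM of miR-34b-5p, 57.2 of miR-34b-3p, 2597 of miR-34c-5p, 22.2 of miR-34c-3p, 241 of miR-449a-5p and 6.54 of miR-449c-5p, each above all 3 kept brains of its group, in which miR-34c-5p was 999 to 1407 CPM and miR-449a-5p 23.3 to 28.4 CPM. In the female spleen of week 104 (replicate 4) miR-449a-5p was 345 CPM, above the kept range of 13.3 to 135 CPM. The brain library held 917 CPM of the X-linked testis miRNAs, against at most 226 CPM in kept brains, and 8639 CPM of the striated muscle miRNAs, against 205 to 907 CPM. The spleen library held 1349 CPM of the first, against at most 86.3 CPM in kept spleens, and 13076 CPM of the second, against 66.9 to 404 CPM. The part of either in these values was not tested.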

How the results depend on the processing

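Of 227 single contrasts named for a call, 120 kept it in every alternative run and 6 changed sign in at least one. The family's calls between organs (764) came to 705 to 904 under the alternatives at the 4-fold limit and 1127 at a 2-fold limit. Those between ages (101) came to 84 to 101, and to 140 without a fold limit. The 66 organ differences of the age change came to 46 to 70. The 3 calls between sexes became 5 with DESeq2 and 5 without replicate 1, and with the lane as a covariate there were again 3, of which 1 was shared. The sex difference of the age change went from 0 to 1 call with the lane covariate and 3 without libraries with testis miRNAs. Leaving out 1 replicate number at a time gave 739 to 783 calls between organs, 84 to 95 between ages, 3 to 5 between sexes, 0 for the sex difference of the age change and 46 to 58 for the organ difference. The log2 ratios between testis and lung ran from 2.26 to 2.43 (miR-34c-5p to miR-34c-3p), -0.0397 to 0.114 (miR-34b-5p to miR-34c-5p, and -0.0382 with male lungs only) and -0.293 to -0.118 (miR-34c-5p to miR-449a-5p). Signs turned for miR-34c-5p (-0.12) and miR-34c-3p (-0.94) in muscle from week 2 to week 6 without libraries with testis miRNAs. In spleen miR-34c-5p turned from week 21 to week 104 (-0.12 to 1.93 leaving out 1 replicate number, lowest without replicate 1, and -0.19 without female replicate 1 of week 104 alone) and between the sexes at week 104 (-0.19 to 4.00, and -0.10), as did miR-34b-5p between the sexes (-0.21 to 3.62). In testis miR-34c-5p turned from week 2 to week 104 with the lane covariate (-0.10). The causes of these turns, beyond the libraries left out, were not tested. Relative to the mean of the other organs, the change of miR-34c-5p in spleen from week 21 to week 104 went from 2.90 to 0.28 without female replicate 1, and that of miR-449a-5p in liver from 4.47 to 2.08 without replicate 4. With the replicate number as a block there were 771 calls between organs, 92 between ages, 3 between sexes, 0 for the sex difference and 64 for the organ difference. Deviations of samples with the same number correlated at a mean of 0.012 across organs and 0.0074 across ages, against -0.0038 and -0.0016 for other numbers. No pairing by number was seen, but a weak effect of a shared rat could give means as small, so pairing across organs was not excluded. Liver libraries were the shallowest, which limits miR-449c-5p and miR-34a-3p there.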
